A study of Rattus norvegicus with 30 samples.

Results

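The expression of 9 epithelial tight junction genes was followed in rat lung: the claudins Cldn1, Cldn3, Cldn4, Cldn7 and Cldn18, occludin (Ocln), junctional adhesion molecule A (F11r) and the scaffolds Tjp1 (ZO-1) and Tjp3 (ZO-3). They were chosen by name as known components of the epithelial tight junction, with earlier results of these data known. All 9 were found among the 22914 genes with counts and passed the filter on low counts that left 15934 genes for testing. The study sequenced polyadenylated RNA from whole lung tissue of 30 male Sprague Dawley rats, 8 weeks old, to compare acute lung injury caused by severe acute pancreatitis (SAP-ALI) with and without drug treatment. There were 10 groups of 3 rats, killed at 6 or 24 h after surgery.

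In the SAP groups 5.0% sodium taurocholate (0.1 mL per 100 g body weight) was infused into the biliopancreatic duct. The Con groups received the same volume of sterile saline by that route, and in the Sham groups the pancreas was only turned slightly. The DEX groups had taurocholate and intravenous dexamethasone, a synthetic glucocorticoid, at 10 mg/kg. The Emo groups had taurocholate and intragastric emodin, a plant anthraquinone, for which the sample notes give 10 mg/kg and the treatment protocol 40 mg/kg. Drugs were given at 2 and 12 h after surgery, so that only the first dose preceded the 6 h collection. Rats without a drug received its vehicle by the same route.

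Tight junctions join neighbouring epithelial cells near their apical surface and limit the passage of water, ions and solutes between them. Claudins form the strands and set their selectivity, occludin and junctional adhesion molecules sit in the same membrane contacts, and ZO proteins tie the strands to the actin cytoskeleton. In the lung these junctions keep oedema fluid out of the airspace. CLDN18 is the claudin best known from alveolar epithelium, CLDN3 and CLDN4 are also made by alveolar cells, and CLDN1 is better known from airway epithelium.

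The promoters of 3 genes are shown because Cldn1 gave the largest differences in this set and because Cldn3 and Cldn7 moved together across the libraries. Each is the 250 bases upstream of the gene start in RefSeq on GRCr8, 5′ to 3′ on the strand of the gene, and capitals mark the E-box bound by Snail and ZEB factors, CAGGTG or its reverse complement CACCTG. The Cldn1 window is chr11:87926126-87926375 on the plus strand, the Cldn3 window chr12:27346548-27346797 on the minus strand, and the Cldn7 window chr10:55188420-55188669 on the plus strand.
Cldn1: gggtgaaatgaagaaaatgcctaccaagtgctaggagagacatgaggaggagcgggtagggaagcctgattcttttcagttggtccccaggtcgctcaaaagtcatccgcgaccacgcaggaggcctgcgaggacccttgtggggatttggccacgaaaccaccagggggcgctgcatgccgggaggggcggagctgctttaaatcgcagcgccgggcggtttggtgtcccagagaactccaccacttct
Cldn3: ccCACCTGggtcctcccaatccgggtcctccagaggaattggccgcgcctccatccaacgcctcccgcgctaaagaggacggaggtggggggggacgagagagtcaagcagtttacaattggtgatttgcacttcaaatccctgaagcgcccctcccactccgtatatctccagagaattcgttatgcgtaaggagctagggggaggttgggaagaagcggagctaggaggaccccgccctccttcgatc
Cldn7: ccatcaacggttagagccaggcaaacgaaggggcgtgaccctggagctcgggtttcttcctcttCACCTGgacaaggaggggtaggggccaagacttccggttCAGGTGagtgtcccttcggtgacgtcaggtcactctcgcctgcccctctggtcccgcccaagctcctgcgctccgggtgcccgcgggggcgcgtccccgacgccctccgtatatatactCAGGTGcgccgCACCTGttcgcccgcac
The Cldn7 window held 4 E-boxes, at 186, 147, 28 and 17 bases before the start, the Cldn3 window held 1 and the Cldn1 window held 0. Of 33469 RefSeq promoters of this length, 15.9% held at least 1 E-box and 0.0299% held 4 or more. Among the other members with an entry, Ocln held 2 E-boxes, Tjp3 and F11r 1 each, and Cldn18 and Tjp1 0. The palindromic glucocorticoid response element, AGAACA and TGTTCT with 3 bases between, matched 0.012% of all promoters and the Grainyhead site AACCGGTT 0.146%, and neither was found in the windows of the 8 members with an entry. The letters GGGCGG of an Sp1 site, on either strand, were present in 30.5% of all promoters and in the Cldn1 (2 matches), Cldn3, Cldn7, Cldn18, F11r (1 each) and Tjp3 (2) windows. These are matches of letters within a fixed window.

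Depth was 16813949 to 34692306 reads on genes per library, and the 9 genes had from 41 reads (Cldn1 in its lowest library) upwards. Replicates differed far beyond counting error, with a chi-square per degree of freedom between 37.4 and 208 for pairs of the same group. In the study's sequencing summary a column headed unique tags, which is not defined there, is a higher share of the clean reads in every Sham and Con library than in any taurocholate library, so that in comparisons with Sham or Con the treatment and whatever set these libraries apart cannot be told apart. Alveolar type 1 and type 2 cell markers were abundant in all groups (1359 to 3966 and 25064 to 47813 FPKM summed over 8 genes each).

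Levels between genes were compared in FPKM, which is scaled for transcript length. Cldn18 (ENSRNOG00000030386) was the most abundant of the 9, with a mean of 247.0 FPKM ± 65.0 (SD, n = 30), and made up 46.1% to 73.7% of the summed FPKM of the 5 claudins in a library. F11r (ENSRNOG00000004414) followed with 132 ± 19.2 FPKM, Cldn3 (ENSRNOG00000046007) with 92.8 ± 17.7 and Cldn7 (ENSRNOG00000017325) with 47.8 ± 11.1. Tjp1 (ENSRNOG00000011077) stood at 25.7 ± 5.79 FPKM and Ocln (ENSRNOG00000018297) at 11.7 ± 1.91. The lowest were Cldn4 (ENSRNOG00000001476) at 7.59 ± 2.26 FPKM, Tjp3 (ENSRNOG00000020501) at 4.88 ± 0.907 and Cldn1 (ENSRNOG00000001926) at 2.30 ± 2.10. Neighbours in this order kept their places in 27 to 30 of the 30 libraries, the fewest being for Tjp3 above Cldn1.

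Cldn1 ranged from 0.43 to 9.76 FPKM, 22.7-fold between the extreme libraries, and its share of the claudin sum ran from 0.129% to 2.19%. Its group means spanned 2.72 on the log2 CPM scale against 0.47 to 0.88 for the other 8 genes. Its SD within groups, 0.66, was also above theirs, which were between 0.18 and 0.38. Both Sham groups had the lowest means for 4 genes, namely Cldn3, Cldn4, Cldn7 and Tjp3, and Con-24h had the highest for F11r, Cldn3 and Cldn7.

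**Figure D1:**
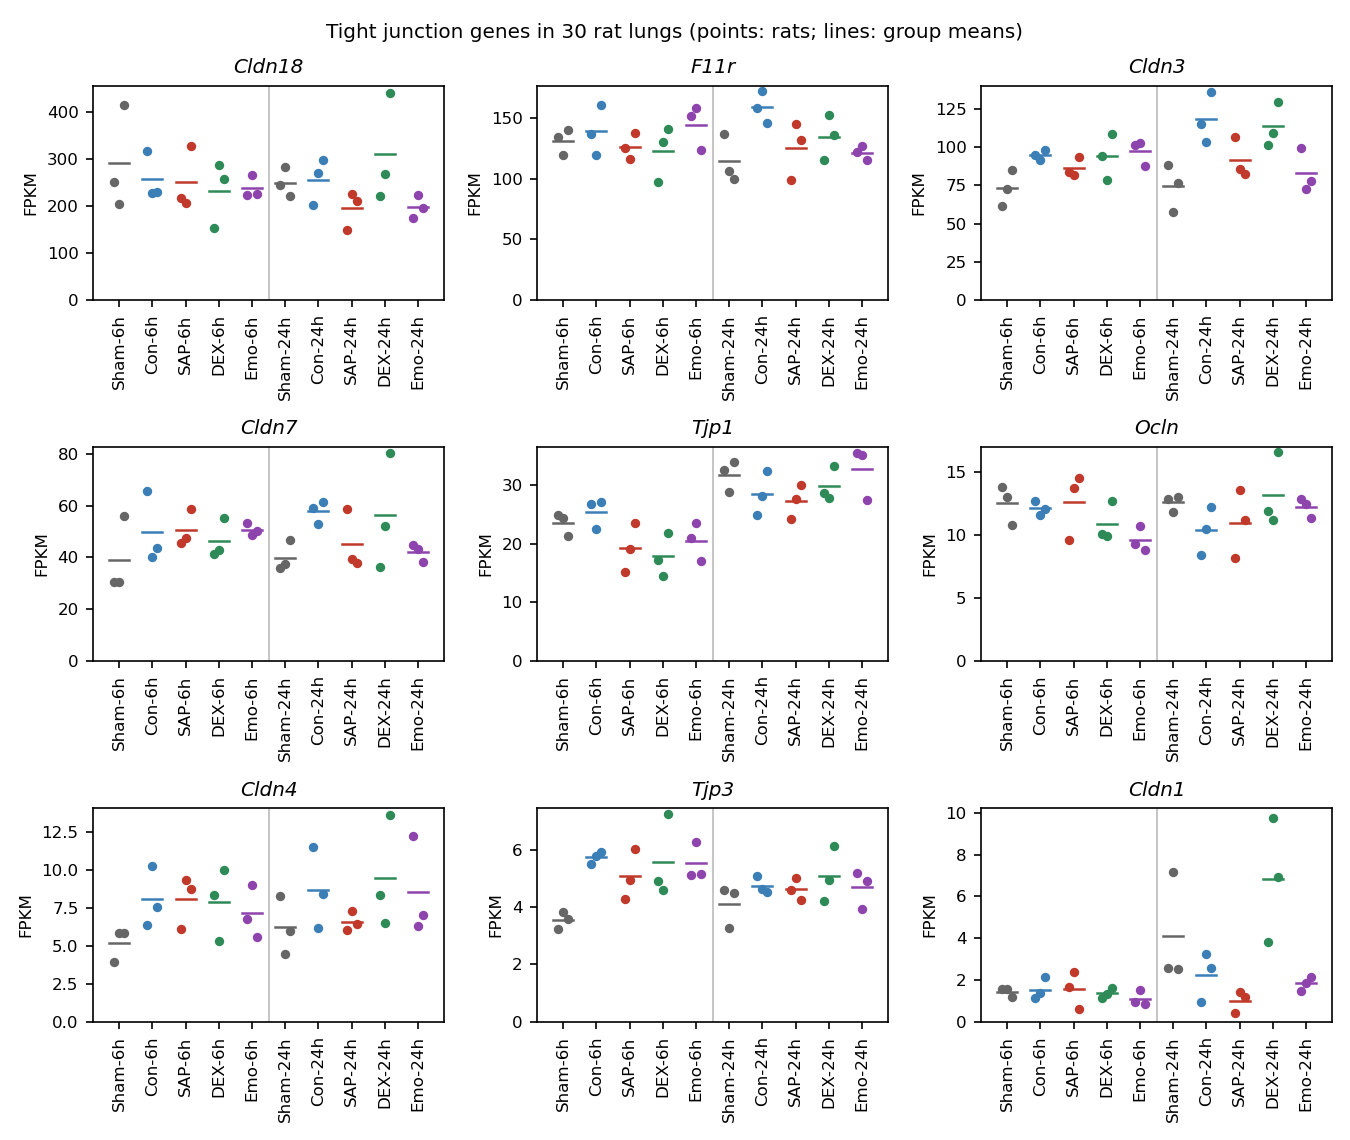
FPKM of the 9 tight junction genes (panels, in order of mean level) in the 10 groups, with 1 point per rat and a line at the group mean. Cldn1 stands between 3.81 and 9.76 FPKM in DEX-24h and between 0.43 and 1.40 in SAP-24h, while the group means of the other 8 genes span 0.47 to 0.88 on the log2 CPM scale.

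The first question was what pancreatitis did to these genes. At 24 h Cldn1 fell in SAP rats relative to Sham, and the other 8 genes did not pass the test. Cldn1 was at 0.43, 1.40 and 1.17 FPKM in SAP-24h and at 2.57, 7.17 and 2.53 in Sham-24h. The ranges were apart, and replicate 2 of Sham-24h was far above the others. The means were 1.00 ± 0.507 and 4.09 ± 2.67 FPKM (SD, n = 3 each), a log2 fold change of -1.93 ± 0.50 (SE), with an adjusted p of 0.0160 by edgeR's quasi-likelihood test. In this comparison 12.4% of all genes tested passed, and the FPKM ranges of 29.4% did not overlap, so 1 of 9 is close to the background. Without replicate 2 of Sham-24h the log2 fold change was -1.22 with an edgeR adjusted p of 0.138, and the test also failed without replicate 1 of SAP-24h. A model of the compared groups alone lost the call as well, and there 0.02% of all genes passed.

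The other members differed less. Between SAP-24h and Sham-24h Cldn18 had a log2 fold change of -0.24 (95% interval -0.81 to 0.33), Tjp1 -0.09 (-0.40 to 0.21), Ocln -0.08 and F11r 0.26 (-0.06 to 0.58). Cldn3 had 0.44 (0.11 to 0.78) with an edgeR adjusted p of 0.0704, and it passed with DESeq2 and in the edgeR fit without replicate 3 of SAP-24h. No bound for the 8 genes other than Cldn1 went past a 1.81-fold difference in either direction. Against Con-24h, the saline-infused group, 0 of the 9 genes passed (22.1% of all genes did), 1 had an unadjusted p under 0.05 (35.1% of all genes), and this was Cldn1 with -1.07 ± 0.50 with an adjusted p of 0.127. Con-24h stood at 0.95, 3.24 and 2.58 FPKM of Cldn1, so its lowest rat lay within the SAP-24h range.

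At 6 h 0 of the 9 genes passed between SAP and Sham, where 0.270% of all genes did. Cldn4, whose product tightens the alveolar barrier, stood at 6.14, 9.31 and 8.74 FPKM in SAP-6h and 3.91, 5.87 and 5.87 in Sham-6h. Tjp3 stood at 4.3, 4.96 and 6.04 FPKM in SAP-6h and at 3.23, 3.84 and 3.6 in Sham-6h. In both genes each SAP rat was above each Sham rat, as in 15.3% of all genes that did not overlap in either direction, and their edgeR adjusted p-values were 0.319 and 0.122. Con-6h rats, without taurocholate, were at 6.40, 10.28 and 7.58 FPKM of Cldn4, also all above the Sham-6h rats, and SAP-6h against Con-6h gave a log2 fold change of 0.07 for this gene. In SAP-6h against Con-6h 0 of the 9 passed as well (0.207% of all genes), 1 of them, Tjp1, with an unadjusted p under 0.05, as had 10.4% of all genes.

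Beside the Cldn1 result, markers of other cells moved too. Of 8 alveolar type 1 markers 3 fell in SAP-24h against Sham-24h, the water channel Aqp5 by 1.55 on the log2 scale, Akap5 by 1.17 and Clic5 by 0.74. Summed over all 8 markers the level was 1359 to 2727 FPKM in SAP-24h rats and 2678 to 3484 in Sham-24h rats. Most of this sum came from Ager and Hopx, which did not pass. Of 6 basal cell markers 1 passed, the keratin Krt14, which fell by 1.36. The summed basal level lay between 33.2 and 48.2 FPKM in SAP-24h rats, 102.7 and 131.0 in Sham-24h rats, 80.8 and 172.2 in DEX-24h rats and 77.5 and 89.99 in Emo-24h rats, nearly all of it from Krt14, while the defining basal genes Tp63 and Krt5 stayed at or below 0.27 and 1.10 FPKM in every group. Of 12 pan-epithelial genes Krt19 fell by 1.34 and Krt18 rose by 0.53. Markers also fell for endothelial cells (2 of 6, among them Emcn at -1.19), fibroblasts (2 of 5, among them Lum at -1.88), lymphocytes (2 of 6) and ciliated cells (1 of 7, Stoml3 at -2.75). Others rose, namely 1 of 8 type 2 cell markers (Sftpb, a surfactant protein gene, 0.81), 2 of 8 club cell markers (among them Scgb1a1, 0.75), 1 of 8 neutrophil, 1 of 7 macrophage and 1 of 5 fibroblast markers. Stoml3 (0.0733 FPKM in SAP-24h against 0.547 in Sham-24h) and the macrophage marker, Marco (0.377 against 0), were near the floor. The part of cell composition in the Cldn1 result was not tested, and in whole tissue fewer cells of a type and less RNA per cell cannot be told apart. The summed neutrophil markers ran from 4666 to 16533 FPKM in SAP-24h rats and from 206.6 to 9372 in Sham-24h rats.

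The next question was whether either drug changed these genes in SAP rats. At 24 h dexamethasone raised Cldn1 and emodin did not pass the test. Cldn1 stood at 3.81, 9.76 and 6.94 FPKM in DEX-24h, above the 0.43 to 1.40 of SAP-24h, and at 1.48, 1.85 and 2.16 in Emo-24h. DEX-24h rats were 6.51-fold higher than SAP-24h rats in the fit, a log2 fold change of 2.70 ± 0.51 (SE, n = 3 each) with an edgeR adjusted p of 0.00259, and this passed in all 6 fits that left out 1 rat (2.34 to 3.02). It was the sole member to pass, where 7.71% of all genes did and the FPKM ranges of 25% did not overlap. All 9 genes had a higher mean in DEX-24h, and 2 of them had an unadjusted p under 0.05, as had 23.1% of all genes. The median log2 fold change of the 9 was 0.21, beside 0.31 for the 12 pan-epithelial genes and 0.00 for all genes. The second was Cldn18, at 147.46, 224.97 and 209.55 FPKM in SAP-24h and 220.29, 267.68 and 439.84 in DEX-24h, with overlapping ranges and a log2 fold change of 0.59 (95% interval 0.02 to 1.16, edgeR adjusted p = 0.201). The upper bound for Cldn18, 2.24-fold, was the widest among the 8 genes other than Cldn1. The SAP-24h rats serve in this comparison and in that with Sham, so the fall and the rise are not independent.

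For emodin against SAP at 24 h 0 of the 9 genes passed, where 8.59% of all genes did, and 0 had an unadjusted p under 0.05, where 26.3% did. Cldn1 had a log2 fold change of 0.74 with a 95% interval from -0.28 to 1.76, although each Emo-24h rat was above each SAP-24h rat, a separation found in either direction in 29.3% of all genes. The other 8 genes had intervals within a 1.76-fold difference. The drugs were also compared with each other: Cldn1 was lower in Emo-24h than in DEX-24h, by a log2 fold change of -1.96 ± 0.50 with an edgeR adjusted p of 0.0152, and 2 of the 9 genes passed there against 8.89% of all genes. The Cldn1 difference lost the threshold without replicate 2 of DEX-24h and without replicate 1 or 2 of Emo-24h. Between the same groups 6 of 6 lymphocyte markers were higher in Emo-24h, with a median log2 fold change of 2.31, while the type 1 cell marker Hopx (-0.66) and Sftpb (-1.11) were lower, and 1 basal (of 6), 1 neutrophil (of 8) and 1 fibroblast marker (of 5) were higher. The part of these cells in the Cldn1 and Cldn3 differences was not tested.

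Cldn3 was the other gene to differ between the drugs. It stood at 101.81, 109.59 and 130.14 FPKM in DEX-24h and at 99.63, 72.85 and 78.10 in Emo-24h, so the ranges were apart by a narrow margin, as those of 29.4% of all genes were in either direction. The log2 fold change was -0.51 ± 0.16 with an edgeR adjusted p of 0.0470, and 4 of 6 fits that left out 1 rat lost it. Set against the mean of the pan-epithelial list the difference was -0.06, since these epithelial genes had a median log2 fold change of -0.50 in the same direction. Cldn18, which stood at 220.29, 267.68 and 439.84 FPKM in DEX-24h and 173.73, 222.31 and 194.07 in Emo-24h, had -0.71 with an adjusted p of 0.116.

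**Figure D2:**
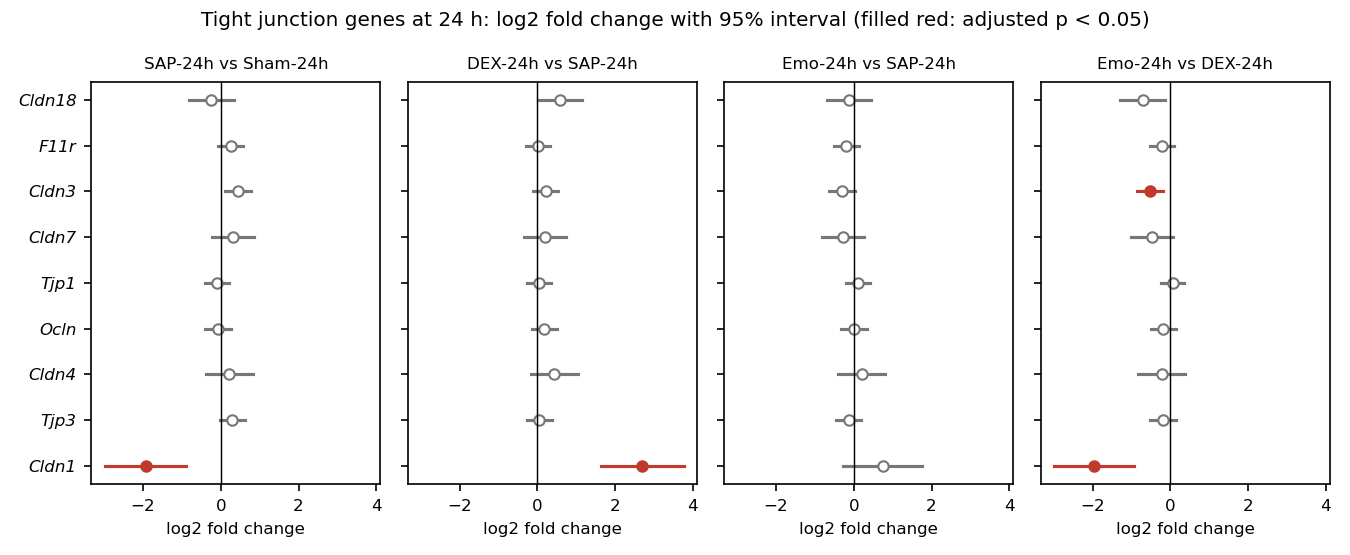
Log2 fold change (x axis, point) with its 95% interval (line) for the 9 genes (y axis) in 4 comparisons at 24 h, with filled red points where the adjusted p was under 0.05. Cldn1 moves by -1.93, 2.70 and -1.96 in the first, second and last panels, and the open points of Cldn3 in the first panel and of Cldn18 in the second and last have intervals that leave out 0.

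At 6 h, after the first dose of either drug, 0 of the 9 genes passed for DEX against SAP (0.979% of all genes), for Emo against SAP (0.0314%) or for Emo against DEX (2.88%), and 0, 1 and 0 of them had an unadjusted p under 0.05 (12.1%, 13.5% and 17.3% of all genes). Cldn1 stood at 1.15, 1.31 and 1.63 FPKM in DEX-6h, within the 0.63 to 2.38 of SAP-6h. Tests of the change of an effect between 6 and 24 h passed for 0 of the 9 genes. For Cldn1 and DEX against SAP this interaction was 2.92 ± 0.70 on the log2 scale with an edgeR adjusted p of 0.0793 (0.169% of all genes passed), for SAP against Sham -2.12 ± 0.70 with 0.213 (0.0314%), and for Emo against SAP 1.25 ± 0.70 with 0.285 (3.57%).

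Within the DEX groups the rise of Cldn1 with time was direct. DEX-24h was 5.10-fold above DEX-6h, a log2 fold change of 2.35 ± 0.51 with an edgeR adjusted p of 0.00214, and all 6 fits without 1 rat kept it. Sham-24h was also above Sham-6h, which stood at 1.56, 1.55 and 1.18 FPKM, by 1.55 on the log2 scale, but with an adjusted p of 0.0912. Krt14 and Krt19 moved in the direction of Cldn1 in DEX-24h against SAP-24h, by 1.52 and 1.53, and of the 12 pan-epithelial genes Krt19 was the 1 that passed there. In that comparison 2 of 7 ciliated and 2 of 6 endothelial markers were also higher in DEX-24h, and 2 of 6 lymphocyte, 1 of 5 fibroblast and 1 of 8 club cell markers were lower. The part of these cells in the Cldn1 result was not tested.

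Compared with Sham both drug groups differed in Tjp3 at 6 h, and DEX alone passed the test in Cldn3 at 24 h. Tjp3 stood at 4.91, 4.60 and 7.26 FPKM in DEX-6h and at 5.13, 6.29 and 5.16 in Emo-6h, all above the Sham-6h rats. Ranges were apart in 26.7% and 21.3% of all genes in these comparisons. The log2 fold changes were 0.69 ± 0.16 (edgeR adjusted p = 0.00892, passing in 4 of 6 fits without 1 rat, and lost without replicate 1 of Sham-6h or 3 of DEX-6h) and 0.67 ± 0.16 (0.0258, passing only without replicate 3 of Sham-6h), and 1 of the 9 genes passed in each where 9.75% and 3.26% of all genes did. Both comparisons use the same Sham-6h rats. In DEX-6h 4 of 7 ciliated cell markers were higher than in Sham-6h, while 2 of 8 type 1 cell markers (Aqp5 at -1.82 and Akap5 at -1.38), 1 of 8 type 2 cell markers (Lamp3 at -0.84), 1 of 6 endothelial, 1 of 7 macrophage and 1 of 6 lymphocyte markers were lower. In Emo-6h Lamp3 was lower (-0.82). The part of these cells in the Tjp3 result was not tested. Con-6h rats, without taurocholate, were at 5.51, 5.80 and 5.92 FPKM of Tjp3, and Sham-6h against Con-6h gave -0.66 with an adjusted p of 0.359, in a comparison in which 0% of all genes passed.

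Cldn3 at 24 h had a like arrangement. Sham-24h rats were at 88.72, 57.66 and 76.86 FPKM, below the 101.81 to 130.14 of DEX-24h and below Con-24h, at 115.38, 103.29 and 136.38, with 26.1% and 28.9% of all genes apart in these comparisons. DEX-24h against Sham-24h gave a log2 fold change of 0.66 ± 0.16 (edgeR adjusted p = 0.0142, 1 of the 9 genes and 6.97% of all genes passing), and Sham-24h against Con-24h gave -0.68 ± 0.16 (0.0136, 2 of the 9 genes and 9.85% of all genes). The first was lost without replicate 2 of Sham-24h or 3 of DEX-24h, and the second without replicate 2 of Sham-24h or 1 of Con-24h. Set against the mean of the pan-epithelial list they were 0.27 and -0.39. In DEX-24h 5 of 6 lymphocyte markers and 1 of 5 fibroblast markers (Lum at -2.45) were lower than in Sham-24h. Higher were 1 of 12 pan-epithelial genes (Krt18, 0.60), 1 of 8 type 2 cell markers (Sftpb, 1.23) and 1 of 7 macrophage markers (Marco, 0.303 against 0 FPKM). The part of these cells in the Cldn3 result was not tested. The second gene there was F11r, the adhesion molecule JAM-A, at 137.09, 106.22 and 100.29 FPKM in Sham-24h and 158.34, 173.07 and 146.13 in Con-24h. Its log2 fold change was -0.48 ± 0.15 with an edgeR adjusted p of 0.0481, which 4 of 6 fits without 1 rat lost. Against the pan-epithelial list the difference was -0.19. Of 8 neutrophil markers 3 were higher in Sham-24h than in Con-24h. Neither group received taurocholate, and the difference in Cldn3 between these controls was about as large as that between DEX-24h and Sham-24h. Emo-24h against Sham-24h had 0 of the 9 genes and 0% of all genes passing, with 1 of the 9, Cldn1 at -1.19, having an unadjusted p under 0.05, as had 3% of all genes.

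**Figure D3:**
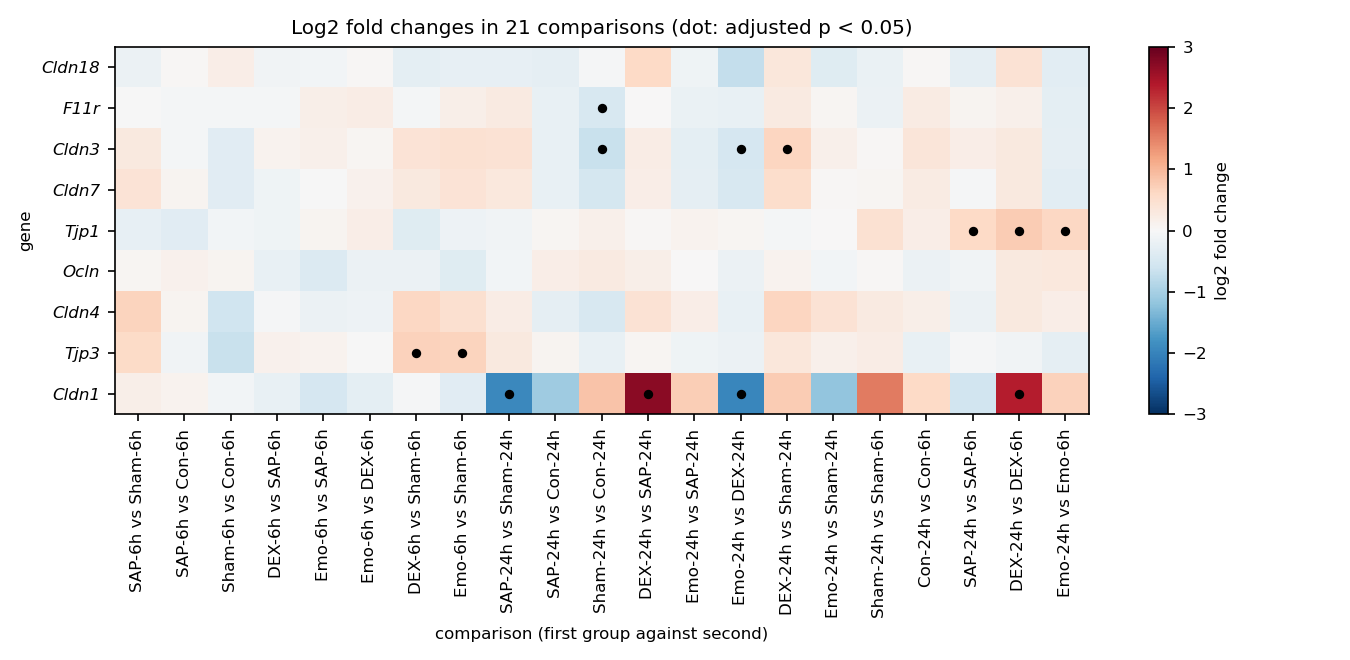
Log2 fold change (colour) of the 9 genes (rows) in all 21 comparisons (columns, first group against second), with a dot where the adjusted p was under 0.05. There are 13 dots among 189 cells: 4 for Cldn1, 3 each for Cldn3 and Tjp1, 2 for Tjp3 and 1 for F11r.

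Time changed the scaffold Tjp1 (ZO-1) in the 3 taurocholate groups. In SAP rats it stood at 15.20, 19.09 and 23.53 FPKM at 6 h and at 24.26, 27.71 and 30.02 at 24 h. In DEX rats it stood at 17.14, 14.57 and 21.82 FPKM and then 28.68, 27.83 and 33.29. In Emo rats it stood at 21.04, 23.52 and 17.10 FPKM and then 35.50, 35.26 and 27.56. In each of these groups, and in Sham, the 24 h rats were all above the 6 h rats.

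The log2 fold changes of Tjp1 from 6 to 24 h were 0.61 ± 0.15 in SAP (edgeR adjusted p = 0.0180), 0.77 ± 0.15 in DEX (0.000869) and 0.63 ± 0.15 in Emo (0.00234). The DEX and Emo results held in all 6 fits without 1 rat, and the SAP result was lost without replicate 1 or 2 of SAP-6h or 3 of SAP-24h. In the Sham rats, at 25.00, 24.38 and 21.32 and then 32.68, 28.78 and 34.01 FPKM, the change was 0.45 ± 0.15 with an adjusted p of 0.0913, and in Con it was 0.21 ± 0.15 with 0.669. The interactions with time for Tjp1 were 0.15 for SAP against Sham, 0.16 for DEX against SAP and 0.02 for Emo against SAP on the log2 scale. Their edgeR adjusted p-values were 0.831, 0.770 and 0.966, so a difference in this rise was not shown between these groups. The change in Con was not tested against that of another group. With 1 (SAP), 2 (DEX) and 1 (Emo) of the 9 genes passing, the shares of all genes passing were 6.01%, 25.9% and 34.1%, and in Sham and Con, with 0 members, 0.992% and 0.0126%. The FPKM ranges of 24%, 42.5%, 47.7% and 23.1% of all genes were apart between 6 and 24 h in SAP, DEX, Emo and Sham.

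Tjp1 has a long transcript, and long genes were shifted with time in some groups. Its implied length of 8252 bases is at the 96.7th percentile. Genes of at least 4110 bases had a median log2 fold change from 6 to 24 h of 0.12 in SAP, 0.10 in DEX, 0.07 in Emo, 0.08 in Sham and -0.03 in Con. In SAP, DEX and Emo 6.4%, 23.1% and 23.4% of them rose against 3.85%, 15.4% and 17.5% of all genes with a length. Among the 3092 genes of that length Tjp1 ranked 198th, 280th and 484th from the top, and it ranked 425th in Sham and 407th in Con. In the same comparisons 3 of 5 fibroblast markers were lower at 24 h in each of the 3 groups, and another of the 5, Dcn, was higher in Emo (2.04). Others were lower too, namely 2 of 6 lymphocyte markers in SAP and 6 of 6 in DEX, and 2 of 3 red cell markers in SAP and 3 of 3 in Emo. The part of transcript length and of these cells in the Tjp1 result was not tested.

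Other scaffold and polarity genes were read from a list of 21. From 6 to 24 h 7 of them rose and 1 fell in DEX rats, and 6 rose and 4 fell in Emo rats, where 25.9% and 34.1% of all genes passed in either direction. In DEX rats the 3 largest were the angiomotins Amotl2 (1.14) and Amot (1.00) and the atypical protein kinase C Prkci (0.98). In Emo rats the 4 largest were Magi2 (-1.61), Pard6a (-0.96), Prkci (0.95) and Mpdz (0.94). Magi2 and Pard6a were near the floor, at 0.16 and 0.48 FPKM in Emo-6h and 0.0567 and 0.253 in Emo-24h. In SAP rats 1 of 21 rose, the paracingulin gene Cgnl1 (0.63), where 6.01% of all genes passed. Tjp3 did not pass with time in any group, its log2 fold changes being 0.23 in Sham, -0.22 in Con, -0.03 in SAP, -0.11 in DEX and -0.28 in Emo. The medians of the list were 0.30, 0.30 and 0.03 in SAP, DEX and Emo, beside 0.02, 0.00 and 0.03 for all genes.

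**Figure D4:**
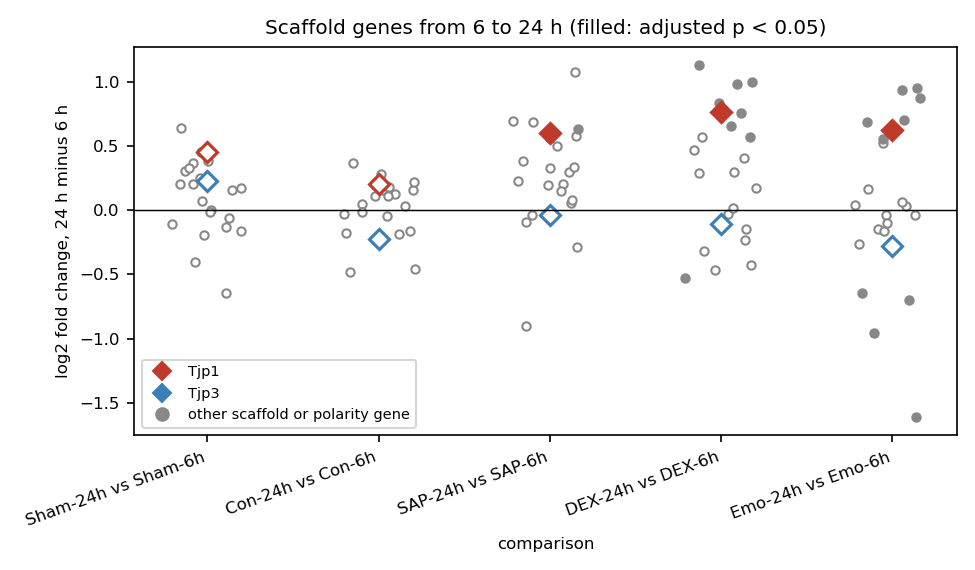
Log2 fold change from 6 to 24 h (y axis) in the 5 arms (x axis) for Tjp1 (red diamonds), Tjp3 (blue diamonds) and 21 other scaffold and polarity genes (grey circles, spread sideways at random), filled where the adjusted p was under 0.05. Tjp1 is above 0 in all 5 arms and filled in SAP (0.61), DEX (0.77) and Emo (0.63), and Tjp3 is open throughout.

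Of 12 other claudins, Cldn11 fell by 2.84 in SAP-24h against Sham-24h (0.607 against 4.79 FPKM) and was the 1 that passed there, where 12.4% of all genes did, and 0 of 12 passed in DEX-24h against SAP-24h. With time 1 of the 12 fell in SAP, and 2 rose and 3 fell in both DEX and Emo, where 6.01%, 25.9% and 34.1% of all genes passed. Cldn5, the claudin of endothelial junctions, fell in SAP (-0.73), DEX (-0.69) and Emo (-1.20), from 1009, 1144 and 1017 FPKM at 6 h. In DEX and Emo Cldn19 also fell (-2.53 and -1.62), and Cldn8 (1.24 and 0.93) and Cldn12 (0.65 and 0.42) rose. Levels of Cldn8 were low, going from 0.40 to 0.933 FPKM in DEX and from 0.59 to 1.17 in Emo. Those of Cldn19 went from 2.30 to 0.387 and from 2.28 to 0.757 FPKM. The remaining falls were Cldn10 in DEX (-0.77) and Cldn23 in Emo (-0.79). Cldn10, an ion-pore claudin, rose by 1.31 in DEX-6h against SAP-6h. It was 1 of 12 in that comparison, in which 0.979% of all genes and 0 of the 9 members passed.

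Of 11 other membrane proteins of tight junctions 3 rose in SAP-24h against Sham-24h, the endothelial adhesion molecules Esam (0.92) and Jam2 (0.80) and the tricellulin-family gene Marveld3 (0.60), while Tmem47 fell (-1.22). In DEX-24h against SAP-24h Esam (-1.03) and Jam2 (-0.95) fell and Tmem47 rose (0.93). In Emo-24h against SAP-24h the same 3 genes passed, with Esam at -0.83, Jam2 at -0.71 and Tmem47 at 1.07. All of these comparisons share the SAP-24h rats, and 12.4%, 7.71% and 8.59% of all genes passed in them. F11r, from the same family as Jam2, had 0.26, 0.02 and -0.19 in those comparisons and did not pass.

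Genes of neighbouring junctions and of their control were listed too. Of 12 adherens junction and desmosome genes 0 passed in SAP-24h against Sham-24h, DEX-24h against SAP-24h or Emo-24h against SAP-24h, and of 13 contractility genes 1 rose and 1 fell, then 0, then 2 fell, where 12.4%, 7.71% and 8.59% of all genes passed. Of 18 transcription factors of epithelial junction genes 2 rose in SAP-24h against Sham-24h, Ovol1 (0.72) and Klf5 (0.46), a share near that of all genes, 0 passed in DEX-24h against SAP-24h, and Ovol1 fell (-0.73) in Emo-24h against SAP-24h. From 6 to 24 h 2 of the 18 rose in DEX and 3 in Emo (25.9% and 34.1% of all genes passed), and 1 was higher and 1 lower in Emo-24h than in DEX-24h (8.89%). Zeb2 was among them in all 3, with 0.87, 0.69 and 0.59. The others were Klf5 (0.42) in DEX, Snai2 (0.91) and Ehf (0.86) in Emo, and Ovol1 (-0.55) in Emo-24h against DEX-24h. Which cells these transcripts came from was not tested. Zeb2 was also lower in DEX-6h than in Sham-6h (-1.06), as was Snai1 (-0.94), these being 2 of the 18 (9.75% of all genes passed). It was higher in Emo-6h than in DEX-6h (0.77), where Nkx2-1 was also higher (0.68) and Snai2 lower (-0.92), beside 2.88% of all genes. In Sham-24h it was higher than in Con-24h (0.58), as 1 of the 18 (9.85%). Of 8 membrane serine proteases and inhibitors Tmprss4 rose by 1.68 in DEX-24h against Sham-24h, where Cldn3 also rose, and by 1.90 from DEX-6h to DEX-24h, where Tmprss2 rose as well (0.79). Spint1 (-0.75), St14 (-0.72) and Prss8 (-0.53) fell from Emo-6h to Emo-24h, and Prss22 (-1.73) and Hpn (-0.95) were lower in SAP-24h than in Con-24h. These are 1, 2, 3 and 2 of 8 genes, beside 6.97%, 25.9%, 34.1% and 22.1% of all genes passing.

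The 9 genes were last compared with each other across the 30 libraries, as a description with Pearson's r of log2(FPKM + 1). The points share library depth and come from 10 groups of 3. Of 36 pairs 5 had an r over 0.5. They were Cldn3 with Cldn7 (0.717), Cldn4 with Tjp3 (0.704), Cldn3 with Cldn4 (0.692), Cldn3 with Tjp3 (0.644) and Cldn7 with Tjp3 (0.524). Cldn4 with Cldn7 had 0.417, and without the 2 farthest libraries Cldn3 with Tjp3 had 0.471 and Cldn7 with Tjp3 0.433. Ocln and Tjp1 had 0.499 in the levels and 0.802 in the deviations from group means. Cldn1 had low values with these genes, 0.044 to Cldn3, 0.004 to Cldn7 and -0.135 to Tjp3, and its highest r in the set was 0.415, to Tjp1.

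The 2 genes most like each member were sought among 12351 genes with a mean of at least 1 FPKM. Cldn7 was the gene most like Cldn3 and Cldn3 the gene most like Cldn7. By Spearman's rho (0.671) they ranked 8th and 6th for each other. For Cldn18 the closest were Anxa5 (0.876) and S100a11 (0.875), both calcium-binding proteins, and for Tjp1 Etl4 (0.933) and AC108574.2 (0.930). For Ocln they were Zmpste24 (0.856) and Zfyve9 (0.835), for F11r Gys1 (0.826) and Lrp5 (0.818), for Cldn4 Nhlrc4 (0.860) and Ldlrad1 (0.804), and for Tjp3 Kcnk12 (0.888) and Slc44a4 (0.863). Cldn1 was closest to Heph, a ferroxidase gene, at 0.806, and to Arhgap21 at 0.799, which ranked 14th and 92nd by Spearman's rho.

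**Figure D5:**
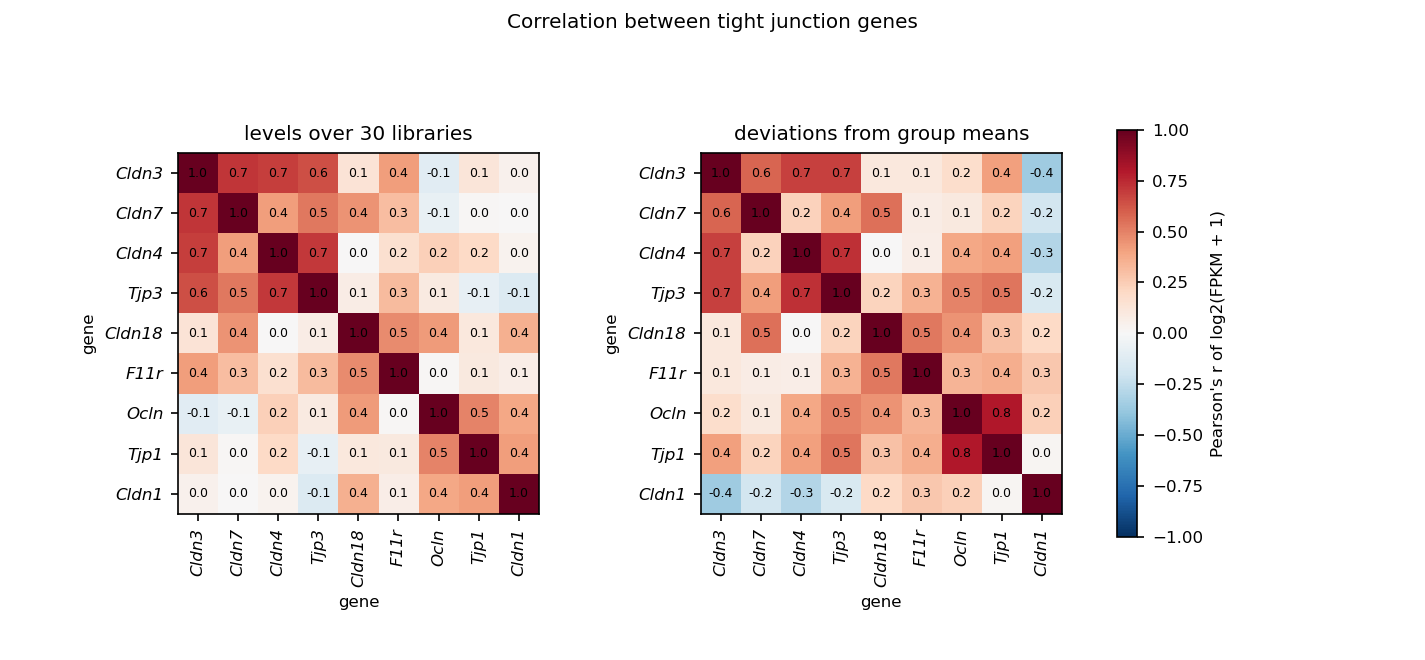
Pearson's r of log2(FPKM + 1) between the 9 genes (rows and columns) over 30 libraries, left, and for deviations from group means, right, printed to 1 decimal. All but 1 of the 6 pairs among Cldn3, Cldn7, Cldn4 and Tjp3, at the upper left, are over 0.5 in the left panel, the exception being Cldn4 with Cldn7 (0.417), Ocln and Tjp1 reach 0.802 on the right, and Cldn1 is near 0 with Cldn3, Cldn4 and Cldn7 on the left.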

How the data were processed

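The members and lists were chosen with earlier results of these data known. The authors mapped reads to the Ensembl rat genome (rat_ensembl_v6) with TopHat2, kept uniquely mapped reads, and deposited read counts per gene and FPKM values (fragments scaled for transcript length and depth). The submitters' processing notes also name bcl2fastq and edgeR. The counting program and its strand setting are not given in the sources used here. Counts were tested here with edgeR 4.0.16 (limma 3.58.1, R 4.3.3): filterByExpr (minimum count 10, total 15), TMM factors, a model of 10 groups over 30 libraries (20 residual degrees of freedom) and the quasi-likelihood test in 21 comparisons and 3 interactions, with Benjamini-Hochberg adjustment over 15934 genes and a threshold of 0.05. FPKM values, as deposited, gave levels, overlap and correlations (pseudocount 1). P-values rest on the spread between rats of the same group, estimated over all 10 groups of 3 rats and not from the compared groups alone. Named were all 9 members, some passing genes of each list and comparison, not in every case the largest, and the 2 genes most like each member. Transcript length was taken from the ratio of counts to FPKM. Promoters came from a RefSeq table (GRCr8, Python 3.11.15). In simulated data for SAP-24h against Sham-24h (15747 genes) 42 of 100 2-fold and 84 of 100 4-fold changes were recovered, with 6 unchanged genes called. The simulation changed far fewer genes than passed in the real comparison and took the spread from its trend over genes. Its shares are therefore not those of the real test. Replicate numbers were checked for pairing: the correlations of deviations exceeded 0.1 in every pair in 1 comparison, DEX-24h against DEX-6h (0.212, 0.221 and 0.230). Alternatives were RLE factors, no count filter, robust dispersion, DESeq2 1.42.0, a model of the compared groups alone, a replicate block, a 2-fold minimum, unadjusted p, leaving out each rat, a pan-epithelial reference, and for likeness a pseudocount of 0.1 and Spearman's rho. The values of 1 gene of the scaffold and polarity list are not reported here; it is included in that list's counts and medians.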

Additional observations from a re-analysis of the deposited data

How the results depend on the processing

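The 13 passing differences kept their direction in all 156 alternative values. They fell short of the threshold in 27 of 78 fits that left out 1 rat and in 10 values of the other settings, of which 8 came from the model of the compared groups alone, which has fewer rats. Counts of the 9 genes that passed moved as follows. With a 2-fold minimum they were 0 for DEX-6h and Emo-6h against Sham-6h, Sham-24h against Con-24h, DEX-24h against Sham-24h and the rise with time in SAP and Emo, and 1 for Emo-24h against DEX-24h and DEX with time. In the same order, 3.97%, 0.477%, 1%, 4.15%, 2.42%, 9.41%, 5.06% and 7.14% of all genes passed at that minimum. With the compared groups alone they were 0 for DEX-6h and Emo-6h against Sham-6h, SAP-24h and DEX-24h against Sham-24h, Sham-24h against Con-24h and SAP with time, 1 for Emo-24h against DEX-24h and 2 for Emo with time. Under that model 3.51%, 0%, 0.02%, 5.46%, 0%, 1.34%, 10.4% and 33.1% of all genes passed in these comparisons, in the order given. With DESeq2 they were 1 for SAP-6h against Sham-6h, Sham with time and the interaction of DEX with time, and 2 for SAP-24h against Sham-24h (2.2%, 6.82%, 2.06% and 16.6% of all genes). Without the count filter Sham-24h against Con-24h had 1 (4.34% of all genes). At an unadjusted p under 0.05 they were 1 for SAP-6h against Con-6h, Emo-6h against SAP-6h, SAP-24h against Con-24h, Emo-24h against Sham-24h, Con with time and the interactions of SAP and DEX with time (10.4%, 13.5%, 35.1%, 3%, 10.5%, 12.6% and 13.6% of all genes), 2 for SAP-6h against Sham-6h, Sham-6h against Con-6h, SAP-24h against Sham-24h, DEX-24h against SAP-24h and Sham with time (13.1%, 8.61%, 28.4%, 23.1% and 20.4%), 3 for Emo-6h against Sham-6h, DEX-24h against Sham-24h and Emo-24h against DEX-24h (22.6%, 19.9% and 21.2%), and 4 for DEX-6h against Sham-6h (25.3%). Leaving out each rat gave 0 to 1 for DEX-6h against Sham-6h, DEX-24h against Sham-24h and SAP with time, and 0 to 2 for Emo-6h against Sham-6h, SAP-24h against Sham-24h, Sham-24h against Con-24h and Emo-24h against DEX-24h. Of all genes 4.22% to 8.85%, 2.73% to 6.21% and 2.08% to 8.68% passed in the first of these fits. In the others 0.0618% to 6.55%, 5.4% to 10.8%, 0.662% to 13.2% and 3.55% to 8.97% passed. With the replicate block the count was 2 for SAP-24h against Sham-24h (Cldn1 and Cldn3, as with DESeq2), beside 11.9% of all genes. It was 1 for Sham-24h against Con-24h (9.11%), where F11r had an edgeR adjusted p of 0.0608, and the pairing changed no other call. The cause of these moves was not tested. Against the pan-epithelial reference F11r in Sham-24h against Con-24h had -0.19, Cldn3 in DEX-24h against Sham-24h 0.27, Cldn1 in Emo-24h against DEX-24h -1.41 and Tjp1 in Emo with time 0.91. With 3 rats per group many changes can be missed, and Cldn1, at 41 reads in its lowest library, is the least precise of the 9. The share missed in the real comparisons is not known. The simulated data for SAP-24h against Sham-24h, with 42 of 100 2-fold and 84 of 100 4-fold changes recovered, held far fewer changed genes and do not give it.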
